A study of Mus musculus with 3 samples.

Results

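Suprabasal keratinocytes, the cells of the epidermis above its basal layer, were taken from the non-lesional dorsal skin library of a mouse wound series by a rule on their raw UMIs. A UMI is a tag that marks a captured RNA molecule. A barcode, taken as a cell, was a member if Krt1 and Krt10 together held at least 1% of its UMIs and no fewer UMIs than Krt5 and Krt14 together, if Krt17 and Krt79 together had under 5 UMIs, and if Col1a1, Col1a2 and Col3a1 together held under 1% of its UMIs. The rule was met by 453 of the 10297 barcodes that had at least 200 genes and at most 10% mitochondrial UMIs (4.40%, exact binomial 95% interval 4.01 to 4.81). They were described against 442 basal keratinocyte barcodes of the same library, in which Krt5 and Krt14 together held at least 1% of UMIs and more than Krt1 and Krt10 did.

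The series holds 3 droplet single-cell RNA libraries, 1 per group, from male C57BL/6 mice aged 7 to 9 weeks. The non-lesional group is unwounded dorsal skin; the wound groups are wound beds taken 2 or 7 days after a full-thickness biopsy of 1.0 by 0.5 cm was cut on each side of the back during the resting phase of the hair cycle. The labels give no genetic change, drug treatment or number of mice per library, and cells were released with collagenase D and DNase1. Each group is a single library and cells are not replicates, so no test was made: intervals cover counting error in these libraries only.

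The epidermis renews itself from basal cells that sit on the basement membrane, divide and express the keratin pair Krt5 and Krt14. A cell that leaves this layer stops dividing, switches to Krt1 and Krt10 in the spinous layer, then makes the proteins and lipids of the granular layer, and ends as a dead cornified cell in the barrier against water loss. Desmosomes join the cells throughout, and Notch signalling, calcium and a set of transcription factors are known to drive the switch.

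The library held 123088680 UMIs in 10857 barcodes, and the wound libraries held 138046172 UMIs in 8707 barcodes at day 2 and 102345327 UMIs in 7317 barcodes at day 7. Members had a median of 24452 UMIs (618 to 115605) and 4323 genes, and basal barcodes had a median of 17432.5 UMIs. The same rule found 0 of 7945 barcodes in the day 2 wound bed, which allows a share of up to 0.0378% (3 counts of the total), and 8 of 5142 in the day 7 wound bed (0.156%, exact interval 0.0672 to 0.306). The basal rule found 1 barcode at day 2 and 13 at day 7. With under 50 members in either wound library, no level was compared across the conditions, and no source used here says how much epidermis each biopsy held. Of the barcode sequences, 23 occurred in both the non-lesional and the day 2 library, 2 of them members, and 24 occurred in both the non-lesional and the day 7 library, 0 of them members.

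The keratins that chose the cells are given as a description. Krt1 and Krt10 together held a median of 3.11% of a member's UMIs (1.06 to 9.22), and 0.0172% in basal barcodes. Krt5 and Krt14 together held a median of 0.00373% of a member's UMIs (0 to 1.89), and 170 members had no UMI of either. In basal barcodes the same pair held a median of 1.95% (1.00 to 5.83). At the limits of the rule, the member with the lowest Krt1 and Krt10 share had 1.06% and the highest barcode left out by that limit had 0.992%. Of 630 barcodes that met the keratin limits, 177 were left out by the follicle or the collagen limit: 7 members had 4 UMIs of Krt17 and Krt79, and 6 barcodes with 5 were left out. The highest collagen share of a member was 0.994%, and the lowest that was left out by that limit was 1.35%.

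**Figure D1:**
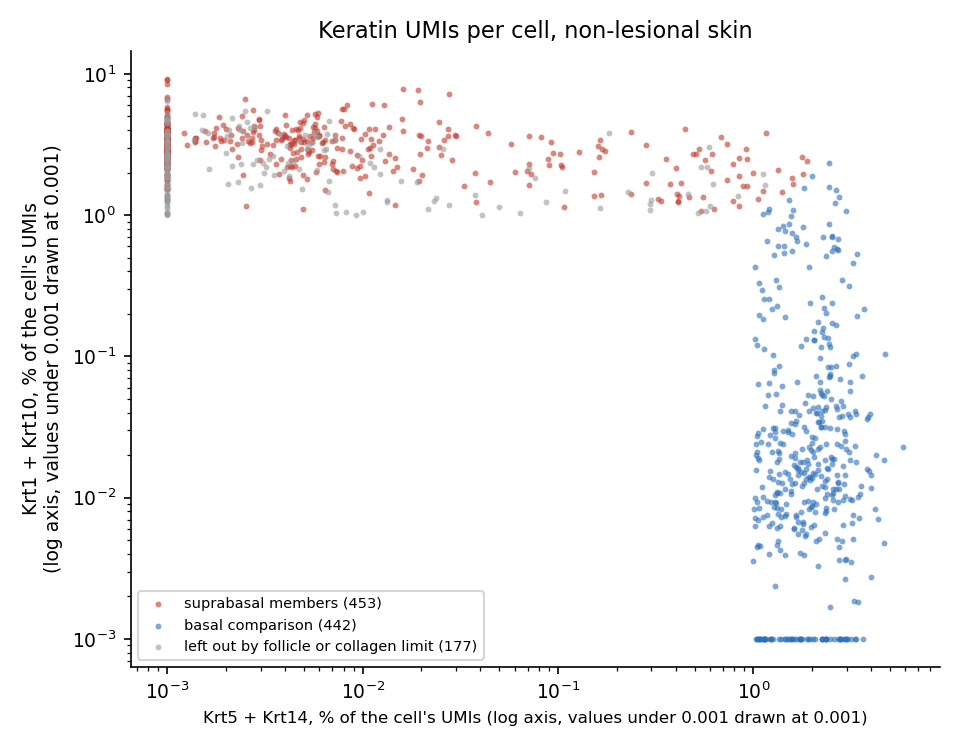
Each point is a barcode of the non-lesional library, with Krt5 plus Krt14 on the x axis and Krt1 plus Krt10 on the y axis, both as a percentage of its UMIs on log axes. The 453 members lie along the top, from no basal keratin UMI at the left edge to 1.89%, and the 442 basal barcodes lie at the right at 1.00% or more.

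The label was checked with Krt77, a type II keratin of the suprabasal epidermis that the rule did not use. Krt77 held a median of 0.703% of a member's UMIs (0 to 3.52) and had a UMI in 98.0% of members. In basal barcodes its median was 0 and 43.9% had a UMI. After every cell was thinned to 1000 UMIs, 85.1% of members, 5.66% of basal barcodes and 3.04% of fibroblast barcodes still had a Krt77 UMI. Fibroblasts, which should not make this keratin, stand here for the level of free RNA: they were 6794 barcodes with at least 1% collagen and under 1% of the 4 rule keratins, with a median of 9669 UMIs before thinning. Thinning left out 2 members, 0 basal barcodes and 125 fibroblast barcodes that were too shallow.

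Other cell types were looked for by marker lists. In members alone the rule limited fibroblast collagens and Krt17, which is on the upper follicle list. The fibroblast and upper follicle comparisons are thus partly set by the rule. The summed level of 12 fibroblast markers was 1253 CPM in members, the UMIs summed over a group and scaled to a total of 1000000, against 4163 CPM in basal barcodes and 188127 CPM in fibroblast barcodes, and none of the 12 was at 0. The direction turned, with 1013 CPM in basal barcodes, when basal barcodes with at least 1% collagen or at least 5 UMIs of Krt17 and Krt79 were left out. The summed level of 11 Langerhans and dendritic cell markers was 33.8 CPM in members and 920 CPM in basal barcodes, where 17 barcodes had at least 0.1% of their UMIs on this list (3 among members). Of 6 T cell markers found, summed to 2.06 CPM in members and 26.7 CPM in basal barcodes, Cd3e was at 0 in members. Of 6 Merkel cell markers, summed to 0.158 CPM in members and 0.751 CPM in basal barcodes, 4 were at 0 in members, Krt8 and Krt18 among them. Melanocyte and Schwann cell, endothelial and mural, and skeletal muscle lists summed to 73.0, 26.4 and 11.01 CPM in members against 61.8, 29.3 and 6.66 CPM in basal barcodes. Of 15 upper follicle and sebaceous markers, summed to 1336 CPM in members and 886 CPM in basal barcodes, only Elovl3 was at 0 in members, and Cst6, which the suprabasal epidermis also makes, gave most of the members' sum with 957 CPM. Without the same basal barcodes the basal sum was 447 CPM. Of the 15 bulge and hair markers found, 6 were at 0 in members, all of them hair or follicle keratins, and the list summed to 262 CPM in members and 2825 CPM in basal barcodes. Most of both sums was Krt15, at 174 CPM in members and 2498 CPM in basal barcodes, which is also on the basal keratinocyte list.

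Genes were compared by the level summed over the cells of each group. Below, higher or lower means at least 2-fold on the log2(CPM + 5) scale, among the 8119 genes with at least 10 CPM in the higher group; the log2 fold on this scale understates the change of low genes. In members 642 genes were higher (7.91%) and 1102 were lower (13.6%), with a median log2 fold of -0.21 over all tested genes. Median-of-ratios scaling moved that median to 0.02 and the counts to 858 higher and 811 lower. A ratio of levels is printed without the pseudocount and with its exact conditional 95% interval. Because the rule picked both groups by their keratins, each of these differences is a description.

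**Figure D2:**
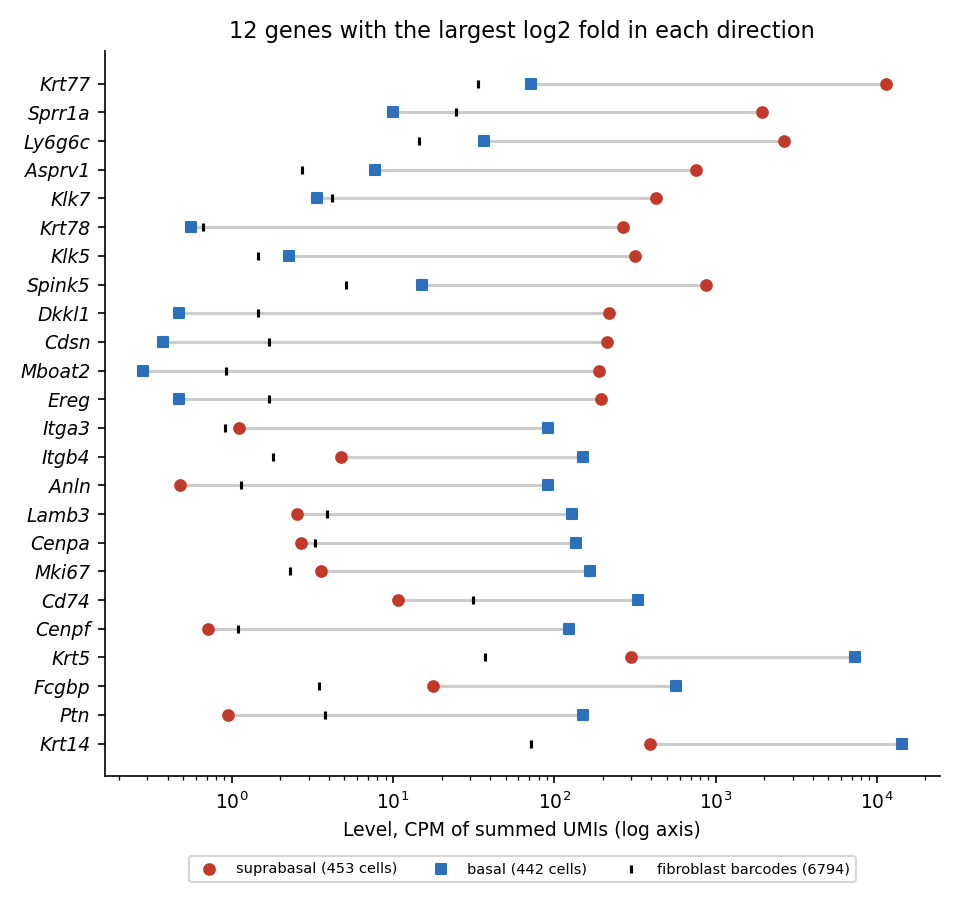
Levels in CPM of summed UMIs on a log axis for the 12 genes with the largest log2 fold in each direction, in suprabasal members (red circles), basal barcodes (blue squares) and fibroblast barcodes (black ticks). From Krt77 down to Ereg the members lie above both other groups, and from Itga3 down to Krt14 they lie below the basal barcodes.

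Spinous layer genes, a list that includes Krt10 of the rule, were higher in 16 of 19, 0 were lower, and the median log2 fold was 3.12. Krt77 was at 11376 CPM in members and 71.4 CPM in basal barcodes, a ratio of 159 (148 to 171) and a log2 fold of 7.22. Krtdap, a small secreted protein of differentiating keratinocytes, was at 12334 CPM in members against 499 CPM in basal barcodes. It had a UMI in 452 of 453 members, with a median of 1.03% of a member's UMIs (0 to 4.07). Sbsn, another secreted protein of the suprabasal layers, was at 6329 CPM against 180.5 CPM, a ratio of 35.1 (33.5 to 36.7). Its neighbour Dmkn was at 5700 CPM against 1413 CPM, a log2 fold of 2.01. Sbsn, Dmkn and Krtdap lie side by side on chromosome 7 (30751471 to 30791097, GRCm38 with GENCODE M21) and together held 2.44% of the members' UMIs and 0.209% of those of basal barcodes. Lgals7, a galectin made throughout the epidermis, was at 18971 CPM against 10628 CPM and Sfn, a 14-3-3 protein of keratinocytes, at 3375 CPM against 2133 CPM, both short of 2-fold.

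The promoter sequences of 4 genes, of which only Krt10 is in the rule, are shown because they are the DNA next to the starts of genes that were higher together in members. Each runs from 250 bases before to 50 bases after the RefSeq start (GRCm38.p6), 5' to 3' on the gene's strand; capitals mark the AP-1 motif TGANTCA (either strand) and the TATA box TATAAA (gene's strand only), and no marked match overlaps another. The regions are chr11:99389315-99389614 (minus strand) for Krt10, chr15:101869656-101869955 (minus strand) for Krt77, chr7:30751221-30751520 (plus strand) for Sbsn and chr7:30787655-30787954 (plus strand) for Krtdap.
Krt10: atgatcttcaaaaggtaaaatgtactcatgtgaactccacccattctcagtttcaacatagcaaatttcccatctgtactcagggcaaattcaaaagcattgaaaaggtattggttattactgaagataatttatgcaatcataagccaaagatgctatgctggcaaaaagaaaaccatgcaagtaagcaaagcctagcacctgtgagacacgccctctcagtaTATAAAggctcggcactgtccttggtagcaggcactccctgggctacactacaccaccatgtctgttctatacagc
Krt77: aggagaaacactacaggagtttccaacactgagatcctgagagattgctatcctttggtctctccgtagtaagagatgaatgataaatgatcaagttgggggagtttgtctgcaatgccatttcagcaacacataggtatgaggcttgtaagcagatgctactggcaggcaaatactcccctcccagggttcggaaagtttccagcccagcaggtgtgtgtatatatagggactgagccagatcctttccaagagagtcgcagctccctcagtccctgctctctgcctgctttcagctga
Sbsn: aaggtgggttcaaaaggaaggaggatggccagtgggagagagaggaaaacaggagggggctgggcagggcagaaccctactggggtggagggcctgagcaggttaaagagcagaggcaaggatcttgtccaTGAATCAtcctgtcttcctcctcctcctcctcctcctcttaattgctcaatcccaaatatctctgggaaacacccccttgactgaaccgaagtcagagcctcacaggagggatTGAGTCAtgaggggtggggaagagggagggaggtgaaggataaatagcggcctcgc
Krtdap: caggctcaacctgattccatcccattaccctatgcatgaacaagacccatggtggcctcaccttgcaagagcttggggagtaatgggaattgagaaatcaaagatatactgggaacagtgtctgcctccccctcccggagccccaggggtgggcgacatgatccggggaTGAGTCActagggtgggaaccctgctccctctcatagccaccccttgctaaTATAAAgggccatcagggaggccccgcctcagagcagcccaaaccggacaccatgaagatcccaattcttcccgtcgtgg

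Sbsn held AP-1 matches with first bases at -119 and -6 from the start, Krtdap held an AP-1 match at -81 and a TATA box at -30, Krt10 held a TATA box at -26, and the Krt77 window held neither string of letters. Of the 642 higher genes 462 had a promoter in the table, and 12.1% of those windows held TGANTCA. The share was 6.24% of 849 windows of lower genes, 4.97% of 6317 windows of tested genes and 7.91% of all 27025 windows. TATAAA stood in 8.44% of the windows of higher genes, 6.48% of those of lower genes, 4.35% of those of tested genes and 8.89% of all windows. Strings named for C/EBP (TTGCNNAA), Grainyhead (AACCNGTT) and KLF (CACCC) were scanned too. They stood in 12.3%, 2.60% and 70.3% of the windows of higher genes, against 8.36%, 1.63% and 62.7% of those of tested genes. A larger share in higher genes was thus not particular to AP-1 and the TATA box. A match of letters is a description of the sequence and says nothing of a factor's binding.

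Genes of the cornified envelope, the protein shell of the dead cell, were mostly higher: 17 of the 19 tested, out of 55 found, with 1 lower and a median log2 fold of 3.00. Sprr1a, a small proline-rich crosslinked protein, was at 1950.5 CPM in members and 10.04 CPM in basal barcodes, a ratio of 194 (161 to 237). Members held 0 to 136 Sprr1a UMIs per 10000, with a median of 4.96. Ivl, the involucrin scaffold of the shell, was at 182 CPM against 1.69 CPM, and Asprv1, the protease that processes filaggrin, at 752 CPM against 7.79 CPM. Flg, which encodes filaggrin, had 1775 UMIs in members and 3 in basal barcodes, a ratio of 500 (171 to 2425), and Lor, the bulk envelope protein loricrin, was at 138 CPM against 9.10 CPM. Tchh, a protein of the hair root sheath, was the gene that was lower, at 6.66 CPM against 21.6 CPM. Tgm1 and Tgm5, which crosslink the envelope, were higher at 40.5 and 24.4 CPM in members against 0.845 and 2.06 CPM in basal barcodes, while Tgm3 at 14.9 against 7.88 CPM did not reach 2-fold.

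Late genes were less evenly spread over the members than Krt10 and Krt77. The rule asked every member for Krt1 and Krt10 UMIs, so the spread of Krt10 is partly set by it. The 10 members with the most UMIs of a gene held 8.96% of all Krt10 UMIs, 13.1% of Krt77, 16.9% of Sprr1a, 23.6% of Ivl and 27.6% of Klk7. The same share was 83.2% for Lor, 63.0% for Flg2, 65.7% for Hrnr and 93.1% for Flg. A single member held 1144 of the 1775 Flg UMIs and a single member 589 of the 1745 Lor UMIs, so the summed levels of these genes rest on very few cells. Flg had a UMI in 47 members and Lor in 114. Thinned to 1000 UMIs, Lor was seen in 3.77% of members, 0.226% of basal barcodes and 0.495% of fibroblast barcodes, and Flg in 2.00% of members, 0 basal barcodes and 0.0450% of fibroblast barcodes. Of the 10 highest Flg members, 5 were among the 10 highest for Lor, 4 for Hrnr and 3 for Cdsn.

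**Figure D3:**
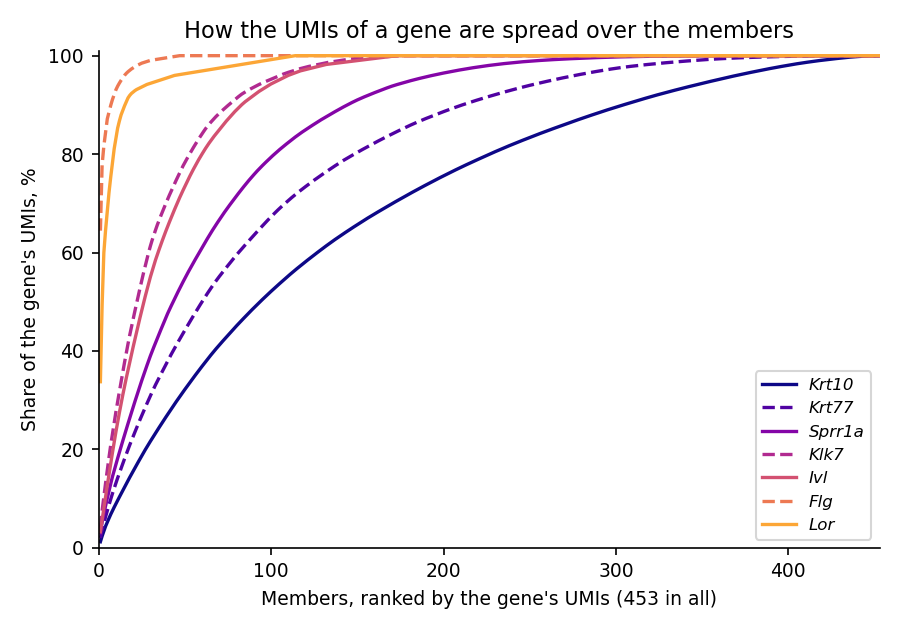
Members ranked by their UMIs of a gene on the x axis and the cumulative percentage of that gene's UMIs on the y axis, 1 line per gene. The lines of Krt10 and Krt77 climb slowly over the 453 members, while those of Flg and Lor pass 80% within the first 10 members.

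The 10 highest Flg members, picked after their values were seen, are described with no test. They had a median of 41522 UMIs (12218 to 71936), against 24183 in the other 443, so they were deeper. Lor was at 2722 CPM in these 10 and 54.6 CPM in the others, Hrnr at 1243 against 55.5 CPM, and Crct1, a late envelope gene, at 1782 against 154 CPM. Cdsn was at 1233 CPM against 179.8 CPM and Ereg at 1041 CPM against 167 CPM. Genes at lower levels in these 10 were the desmosomal cadherin Dsc3 at 131 CPM against 864 CPM, the water channel Aqp3 at 27.8 against 178 CPM and the keratinocyte regulator Trp63 at 20.2 against 117 CPM.

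Lipid enzymes of the barrier were higher together: 24 of 30 were higher, 0 were lower, and the median log2 fold was 2.25. Elovl4, which makes the very long fatty acids of the barrier ceramides, was at 691 CPM in members and 14.8 CPM in basal barcodes, a ratio of 46.6 (39.8 to 54.9). It had a UMI in 96.9% of members, with a median of 5.67 per 10000 UMIs, and after thinning in 41.5% of members, 1.81% of basal barcodes and 0.270% of fibroblast barcodes. Fabp5, a fatty acid carrier, was at 2655 CPM against 109 CPM, and Acer1, an alkaline ceramidase, at 259.8 CPM against 6.10 CPM. Abca12, which loads lipid into the granules that are secreted to form the barrier, was at 222 CPM against 25.8 CPM. Alox12b and Aloxe3, lipoxygenases that act on barrier ceramides, were at 46.0 and 35.7 CPM in members against 0.0938 (1 UMI) and 1.97 CPM in basal barcodes. Degs1, Sgms1, Sptlc2, Abhd5, Asah1 and Rdh10 did not reach 2-fold.

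Cholesterol synthesis was higher in 19 of its 23 genes and lower in 0 (median log2 fold 1.85). Fdps, which makes farnesyl diphosphate, was at 689 CPM in members and 86.2 CPM in basal barcodes, a ratio of 8.001 (7.47 to 8.57). Mvd had the largest log2 fold of the list, 3.08, and Sqle, the squalene epoxidase, was at 179 CPM against 22.3 CPM. The regulator Srebf2, at 78.1 CPM in members and 42.6 CPM in basal barcodes, was below 2-fold.

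**Figure D4:**
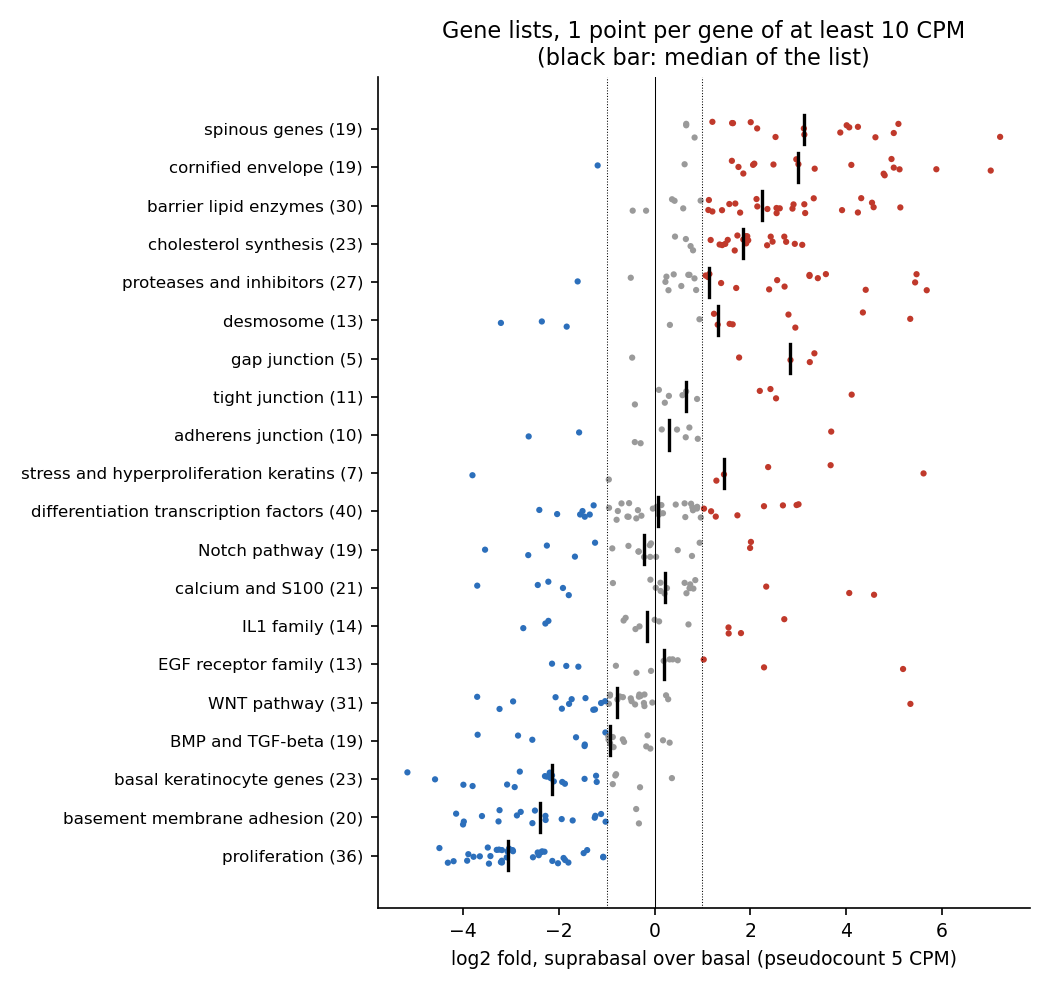
Each point is a gene of at least 10 CPM, placed by its log2 fold of suprabasal over basal with a pseudocount of 5 CPM, and the black bar is the median of its list. Dotted lines mark 2-fold; the spinous, envelope, lipid and cholesterol lists lie to the right, and the basement membrane, basal and proliferation lists lie to the left.

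Proteases that cut the links between cornified cells and their inhibitors were higher in 16 of 27 genes and lower in 1, with a median log2 fold of 1.14. Klk7 and Klk5, the kallikreins that digest corneodesmosomes, were at 426 and 317 CPM in members and 3.38 and 2.25 CPM in basal barcodes. Spink5, which encodes their inhibitor LEKTI, was at 874 CPM against 15.2 CPM, a ratio of 57.5 (49.2 to 67.5). All 4 tested kallikrein genes of the cluster on chromosome 7 were higher, the others being Klk8 and Klk11. Stfa3, a cysteine protease inhibitor, was lower at 78.3 CPM against 249 CPM.

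Desmosomal genes split by member of the family: 8 of 13 were higher, 3 were lower, and the median log2 fold was 1.32. Cdsn, the corneodesmosin that is added to the outer desmosomes, was at 213 CPM in members and 0.375 CPM in basal barcodes (4 UMIs), and Dsc1 was at 155 against 2.82 CPM. Dsg1a, a desmoglein with a UMI in 100% of members, was at 1176 CPM against 165 CPM, a ratio of 7.13 (6.79 to 7.495). Dsg2 and Dsg3, cadherins of the lower layers, were lower at 1.74 and 8.24 CPM in members against 57.4 and 62.8 CPM in basal barcodes. Dsc3 was at 841 CPM against 437 CPM, a log2 fold of 0.94. The plaque proteins Dsp and Jup were higher with log2 folds of 1.63 and 1.32, and Pkp4 was lower with -1.84.

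Other junctions differed less uniformly. Of 5 gap junction genes 4 connexins were higher, with Gjb2 at 56.0 CPM in members against 1.03 CPM in basal barcodes, while Gja1 was at 172 against 239.8 CPM. Of 11 tight junction genes 4 were higher and 0 lower, with the claudin Cldn4 at 163 CPM against 4.69 CPM. Cldn1, which seals the granular layer, was short of 2-fold at 281 against 176 CPM. Of 10 adherens junction genes Pvrl4 (nectin 4) was higher at 131 CPM against 5.54 CPM, and Cdh3, the P-cadherin of basal cells, and Ajuba were lower. Cdh1, the E-cadherin of the whole epidermis, was at 291 CPM in members and 209 CPM in basal barcodes.

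The genes that hold a basal cell to the basement membrane were lower in 18 of 20 and higher in 0, with a median log2 fold of -2.39. Itgb4 and Itga6, the integrin pair of the hemidesmosome, were at 4.75 and 58.8 CPM in members and 151 and 464 CPM in basal barcodes. Itga3 was at 1.11 CPM against 91.8 CPM and the laminin chain Lamb3 at 2.54 against 128 CPM. Col17a1, the transmembrane collagen of the hemidesmosome, was at 99.3 CPM against 979.8 CPM. Dag1 and Itgav did not reach 2-fold. Of 23 genes on a basal keratinocyte list, which includes Krt5 and Krt14 of the rule, 18 were lower and 0 higher; Krt15 was at 174 CPM against 2498 CPM and Trp63, the master regulator of stratified epithelia, at 114 against 272 CPM, which was short of 2-fold with median-of-ratios scaling.

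All 36 proliferation genes were lower, with a median log2 fold of -3.06. Mki67 had 45 UMIs in 27 of the 453 members, or 3.57 CPM, against 166 CPM in basal barcodes. Cenpf was at 0.713 CPM against 124 CPM and Anln, of the contractile ring, at 0.475 CPM against 91.8 CPM. Top2a was at 11.9 CPM in members against 181 CPM, and thinned to 1000 UMIs it had a UMI in 1.77% of members, 9.73% of basal barcodes and 0.210% of fibroblast barcodes.

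Among transcription factors of differentiation 8 of 40 were higher and 7 lower, with a median log2 fold of 0.08. Prdm1, a repressor of the granular layer, was at 69.9 CPM in members and 4.32 CPM in basal barcodes, Grhl3, needed for barrier formation, at 112 against 9.95 CPM, and Zfp750 at 113 against 13.3 CPM. Cebpa, Grhl1, Foxn1, Ovol1 and Cebpb were the other higher factors. Klf4, needed for the barrier, was at 1645 CPM against 886 CPM, a log2 fold of 0.89; fibroblast barcodes held 1696 CPM of it. Within factor families the members parted: Grhl3 and Grhl1 were higher and Grhl2 lower at 12.4 against 37.2 CPM, and Ovol1 was higher while Ovol2 was lower at 4.91 against 35.7 CPM. Bnc1, a basal layer factor, had 5 UMIs in members and 252 in basal barcodes.

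Notch receptors also parted. Notch3 was at 38.3 CPM in members against 5.72 CPM in basal barcodes, a ratio of 6.69 (5.11 to 8.88), and Notch2 at 109.6 against 23.7 CPM, while Notch1 was at 93.3 against 177 CPM, short of 2-fold. The ligands Jag2 and Dll1 were lower at 0.634 and 3.33 CPM in members against 60.6 and 34.6 CPM in basal barcodes, and Jag1 was at 70.5 against 75.5 CPM. The target Hes1 was lower at 26.9 against 70.5 CPM, and fibroblast barcodes held 141 CPM of it; with cells thinned to 1000 UMIs it was short of 2-fold. In all, 2 of 19 genes of the pathway were higher and 5 lower.

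Calcium binding proteins held both extremes: 3 of 21 were higher and 5 lower. The calmodulin-like genes Calm4, Calml3 and Calm5 were higher, with Calm4 at 6083 CPM in members against 249 CPM in basal barcodes. After thinning, 92.2% of members, 17.6% of basal barcodes and 1.87% of fibroblast barcodes had a Calm4 UMI. The 5 lower genes were S100a6, S100a13, S100a4, S100a10 and S100a1, with S100a6 at 146 CPM against 1969 CPM. These S100 genes lie at the ends of the epidermal differentiation complex on chromosome 3 (90511034 to 93564643), in which 14 of 23 tested genes were higher and 6 lower, the 14 including Lor, Ivl, Flg, Hrnr and Sprr1a and the 6 including Tchh.

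Growth factor and cytokine genes were mixed. Of 13 EGF receptor family genes 3 were higher and 3 lower. Ereg and Areg, ligands of the receptor, were higher at 195 and 288 CPM in members against 0.469 (5 UMIs) and 55.1 CPM in basal barcodes. The third was Erbb2, named after its value was seen, with a log2 fold of 1.03, or 0.99 against the 322 basal barcodes that had under 1% collagen and under 5 UMIs of Krt17 and Krt79. Epgn, Nrg1 and the inhibitor Lrig1 were the lower genes, and Egfr was at 56.2 against 48.6 CPM. Among IL1 family members 4 of 14 were higher and 3 were lower. Il1f5, which encodes the IL36 receptor antagonist, was at 74.96 CPM against 7.23 CPM and Il1rn, the IL1 receptor antagonist, at 104 against 61.5 CPM, a ratio of 1.68 (1.53 to 1.85). Il33 and the decoy receptor Il1r2 were lower at 9.91 and 7.69 CPM in members against 67.5 and 80.0 CPM in basal barcodes. Il1b was lower at 0.792 against 21.96 CPM. Without barcodes that held at least 0.1% Langerhans markers it no longer reached 2-fold, nor did Cxcl2, whose log2 fold turned to 0.72. Cd74, H2-Ab1, H2-Eb1 and Cd207 also fell short of 2-fold in that setting. Cd74 is itself on the marker list that removed the barcodes, so its loss follows from the removal. The losses of Cd207, H2-Ab1 and H2-Eb1 are no independent evidence either, as the barcodes were removed by markers of Langerhans and dendritic cells. Il1a and Il18 had under 10 CPM in both groups.

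WNT pathway genes were lower in 12 of 31 and higher in 1, with a median log2 fold of -0.78. Wnt10a and Wnt4, ligands of the basal layer, were at 5.23 and 70.2 CPM in members against 129 and 283 CPM in basal barcodes, and the feedback gene Axin2 at 14.98 against 43.5 CPM. The gene that was higher, Dkkl1, a relative of the dickkopf inhibitors, was at 217 CPM against 0.469 CPM (5 UMIs). Of 19 BMP and TGF-beta genes 0 were higher and 7 lower, with the antagonist Fst at 7.85 CPM against 162 CPM. Ccl27a, the skin chemokine of T cells, was lower at 50.003 CPM against 388 CPM, and among 15 cytokine and chemokine genes Il34 alone was higher, at 68.1 against 28.2 CPM.

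Keratins outside the rule were mixed as well. Krt78 was at 268 CPM in members and 0.563 CPM in basal barcodes (6 UMIs), and Krt23 and Krt80 were higher too. Krt16, which is induced in injured epidermis, was at 125 CPM against 48.0 CPM, and Krt6a was at 9.67 against 23.5 CPM. Krt6b had 282 UMIs in 5 members and 3 in basal barcodes, a ratio of 79.4 (26.9 to 387) that rests on those 5 cells. Krt2, a keratin of the upper spinous layer, had 46 UMIs in members and 2 in basal barcodes, a ratio of 19.4 (5.08 to 165). The Skint genes, which encode membrane proteins of the epidermis and thymus that shape the skin's T cells, were higher in 7 of 9 and lower in 0, and summed to 845 CPM in members against 59.8 CPM in basal barcodes; this family was picked after its values were seen.

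A few genes of other kinds were among the 12 with the largest log2 fold in each direction. Ly6g6c, a membrane-anchored protein of the Ly6 family, was at 2669 CPM in members and 36.5 CPM in basal barcodes, and 97.1% of members, 30.8% of basal barcodes and 5.81% of fibroblast barcodes had a UMI of it. Mboat2, a phospholipid acyltransferase, had 2390 UMIs in members and 3 in basal barcodes, a ratio of 673 (229.9 to 3264). Ptn, the secreted growth factor pleiotrophin, had 12 UMIs in members and 1596 in basal barcodes, and Fcgbp was at 17.7 CPM in members against 565 CPM in basal barcodes. Cd74, of the MHC class II pathway, was at 10.7 CPM in members against 330.1 CPM in basal barcodes, the group that also held the barcodes with Langerhans markers.

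The energy lists had median log2 folds of -0.32 for the respiratory chain and -0.48 for glycolysis, against -0.21 over all genes tested. Of 26 respiratory chain genes 0 were higher and 1 lower, and of 19 glycolysis genes 0 were higher and 3 lower. Hspb1, a small heat shock protein of differentiating keratinocytes, was at 5076 CPM in members against 1073 CPM in basal barcodes, and Dnajb1 was the other higher gene of 24 immediate early and heat shock genes, of which 3 were lower. Of 25 antioxidant genes 5 were higher and 7 lower, with Prdx5 at 1595 CPM against 222 CPM and Sod1 at 5.71 against 40.4 CPM. Of 17 genes of autophagy and organelle clearance only Trex2, a DNA exonuclease, was higher, at 45.6 against 0.657 CPM. Of 10 water and ion handling genes the sodium channel subunit Scnn1a was higher at 38.3 CPM against 1.13 CPM and Aqp3 lower at 173 against 404 CPM, short of 2-fold with median-of-ratios scaling and with cells weighted equally. Of 16 MHC and interferon genes 0 were higher and 6 lower.

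Fibroblast collagens were lower in members, with Col1a1 at 249.6 CPM against 1018 CPM, but the limit of the rule on collagen applied to members alone. Of the basal barcodes 20 held at least 1% collagen and 105 had at least 5 UMIs of Krt17 and Krt79. Without both kinds, 322 basal barcodes remained, and the log2 folds of Col1a1, Col1a2 and Col3a1 turned to 0.19, 0.22 and 0.29. Krt79 and Sox9, genes of the follicle, and Sparc no longer reached 2-fold in that setting. Krt79 is itself part of the limit that removed barcodes, so its loss follows from the removal.

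Members were then ordered by the share of their UMIs on the cornified envelope list and cut into tertiles of 151, with median shares of 0.0714%, 0.196% and 0.707%. This split was chosen after values were seen. Depth moved with it, at medians of 19083, 25038 and 35107 UMIs from the lowest to the highest tertile, and so did the median mitochondrial share, at 1.85%, 1.45% and 1.23%; their part in the differences was not tested. Of 7447 genes tested, 525 were at least 2-fold higher in the highest than in the lowest tertile (7.05%) and 651 lower (8.74%).

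Outside the list that ordered the cells, Cdsn was at 1.34, 14.6 and 463 CPM from the lowest to the highest tertile, and Klk7 at 17.8, 106 and 865 CPM. Ereg was at 5.71, 22.7 and 415 CPM and Dkkl1 at 9.73, 80.1 and 422 CPM. Krt77 was at 2988, 8160.2 and 18035 CPM, a log2 fold of 2.59, while Krt1 was at 8410.5, 9967 and 6425 CPM, a log2 fold of -0.39. Spink5 was at 125, 409.9 and 1592 CPM, Prdm1 at 10.4, 38.8 and 123 CPM, and Cldn4 at 26.2, 97.5 and 281 CPM. Genes that ran the other way were Krt15 at 520.2, 124 and 27.7 CPM, Col17a1 at 296, 77.8 and 10.9 CPM and Ccl27a at 134, 49.9 and 6.17 CPM. Notch3 was at 32.9, 42.6 and 38.1 CPM and Dsc3 at 841, 958 and 759 CPM, with no 2-fold difference.

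**Figure D5:**
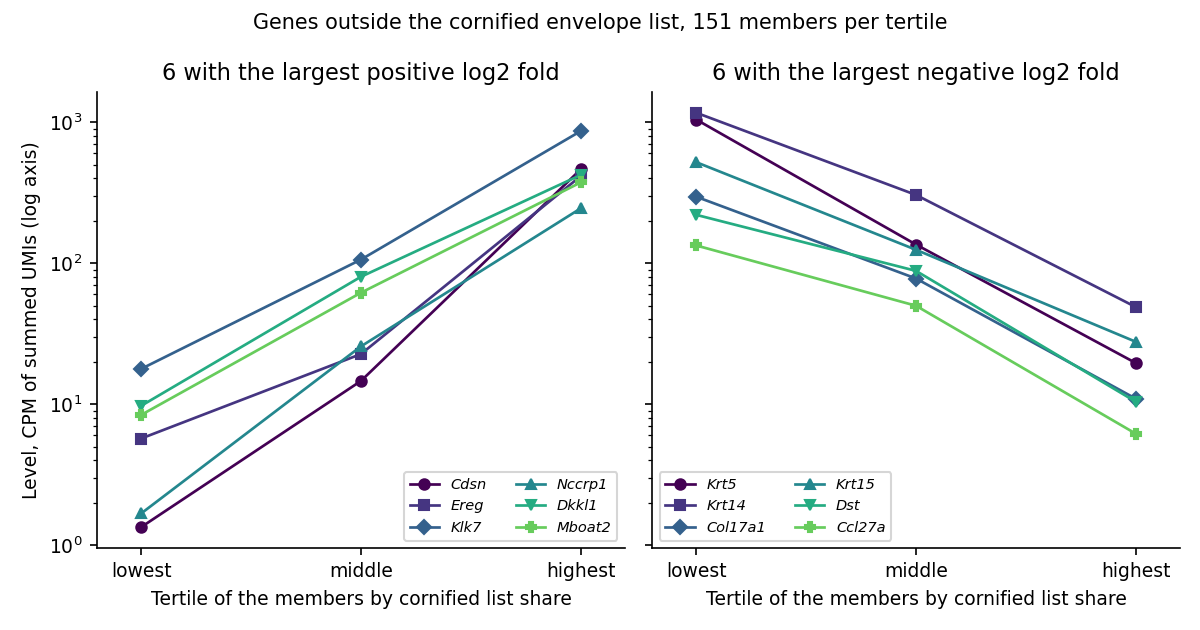
Levels in CPM of summed UMIs (log axis) in the lowest, middle and highest tertile of the members by their cornified envelope share, 151 members each. The left panel shows the 6 genes outside that list with the largest positive log2 fold, led by Cdsn at 1.34 to 463 CPM, and the right panel the 6 with the largest negative one, led by Krt5.

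By list, barrier lipid enzymes were higher in the highest tertile in 21 of 30, cholesterol synthesis genes in 16 of 23, and proteases and inhibitors in 16 of 29, with 0 lower in each. Connexins were higher in 5 of 6. Basement membrane genes were lower in 10 of 15 and higher in 0, and basal keratinocyte genes were lower in 19 of 22 and higher in 0. Among the 40 transcription factors 6 were higher and 6 lower, and of 15 Notch pathway genes 1 was higher and 1 lower.

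The members also differed in how much basal keratin RNA they held, which the rule used. Of the 453, 170 had no Krt5 or Krt14 UMI, 222 had under 0.1%, and 61 had 0.1% or more. The 222 had a median of 27266.5 UMIs. They held 37.7 CPM of Krt5 and 50.4 CPM of Krt14, levels that the split itself kept low. Fibroblast barcodes held 37.0 and 71.3 CPM, with a UMI of Krt5 in 8.68% and of Krt14 in 12.7% of them. Because the split set the level of the 222, the source of this RNA cannot be read from it and was not tested. The 61 were shallower, with a median of 19037 UMIs against 22852 in the 170, their median mitochondrial share was 1.86% against 1.49%, and their median Krt1 and Krt10 share was 2.02% against 3.09%. The part of these in the differences was not tested. Between these groups 316 of 7460 genes were at least 2-fold higher in the 61 (4.24%) and 382 lower (5.12%). The 61 held 428 CPM of Col17a1 against 63.9 CPM in the 170, 811 against 103 CPM of Krt15, and 115 against 3.47 CPM of Fcgbp, a mucin-like secreted protein. Stress keratins were higher in the 61 too. Krt16 was at 286 against 33.6 CPM, Krt6a at 57.3 against 1.16 CPM, and Krt6b, seen in 3.28% of the 61, at 124 against 0 CPM. The 61 held less of the late genes, with Krt78 at 24.6 CPM against 283 CPM and Klk7 at 29.5 against 391.98 CPM. Krt1 was nearly level, at 7842 CPM in the 61 and 8134 CPM in the 170, while Krt77 was at 1923 against 12000.4 CPM.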

How the data were processed

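Per the labels, single-cell 3' libraries (Chromium v2 kit) of male mouse dorsal skin were sequenced in 3 groups of 1 library. The deposited count matrices hold raw UMI counts per gene and barcode for 27998 gene identifiers; the file headers name Cell Ranger 5.0.0 and the submitters' processing notes name Cell Ranger 3.0.2, Seurat 3.0 and mm10, a difference not settled here. Of the identifiers, 56 symbols stand on more than 1, and the identifier with the most UMIs was used (Flg and Ccl27a among them). Barcodes, members and basal barcodes were taken by the limits given above. UMIs were summed per group, scaled to CPM and put on a log2(CPM + 5) scale for folds. Genes were named by a rule: the 12 largest log2 folds in each direction with at least 50 CPM and a UMI in 10% of cells, the 4 largest of each list, and a set list of genes. The members and lists were chosen with earlier results of these data known. Doublets were kept in the main values and scored with Scrublet in scanpy 1.11.5 for an alternative. Intervals are exact binomial or conditional binomial at 95% and cover counting error only. Folds were checked on simulated counts. Promoters come from RefSeq and positions from GENCODE M21. Python 3.11.15, numpy 2.4.6, scipy 1.17.1 and pandas 2.3.3 were used.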

Additional observations from a re-analysis of the deposited data

How the results depend on the processing

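No paired analysis was possible because each group is 1 library and the comparison is within a single library. The members were 451, 429 and 426 with at least 500 genes per barcode, with at most 5% mitochondrial UMIs and with the top doublet scores removed, which took out 27 members and 40 basal barcodes. With Krt1 and Krt10 at 5% or more there were 26, with 1043 genes higher and 2053 lower, against 642 and 1102. The other alternatives kept both counts within 1.5 times, from 589 to 858 higher and from 811 to 1419 lower. Leaving out members with at least 0.1% basal keratin gave 690 higher and 1217 lower, and leaving out Langerhans marker barcodes 649 and 1084; both were chosen after seeing the data. Cells thinned to 1000 UMIs gave 820 and 1336, of which 507 and 744 were among the main calls. The median of the stress keratin list turned to -0.00814 with no minimum level, and Cxcl2 turned to 0.72 without Langerhans marker barcodes. The cause of either was not tested. Col1a1, Col1a2 and Col3a1 turned to 0.19, 0.22 and 0.29 with the stricter basal group. That group left out basal barcodes with at least 1% of these same collagens, so the turn is partly set by the limit. Many genes were named for their large main folds, so most were likely to stay past 2-fold in any setting. The log2 folds of 131 named genes left their main counting interval with Krt1 and Krt10 at 5% or more. With thinned cells 104 did so, and with at least 500 genes per barcode 0. Of 133 named genes past 2-fold, 6 or fewer were no longer past it under each of 13 alternatives. They were Klf2, Slc2a1, Slc16a1, Aqp3 and Trp63 with median-of-ratios scaling, Slc2a1, Aqp3 and Sox9 with cells weighted equally, Il1b, Ifi27l2a, Slc2a1 and Hes1 with thinned cells, Slc16a1, Sox9 and Ovol1 with the 26 members, Krt79, Sox9, Sparc and the 3 collagens with the stricter basal group, Sparc and the collagens without the top doublet scores, and the 6 genes Cd74, Il1b, Cxcl2, Cd207, H2-Ab1 and H2-Eb1 without Langerhans marker barcodes. The equal tertiles by keratin ratio could not be made because 170 members share the highest ratio, so 3 unequal groups by basal keratin share were used.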
